A study of Mus musculus with 16 samples.

Results

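The genes described here encode the extracellular and cell-surface part of Wnt signalling. They were chosen by name and make up 46 of the 21883 protein-coding genes examined (autosomes, X and Y): 19 Wnt ligands, 10 Frizzled receptors, 5 further receptors (Lrp5, Lrp6, Lgr4, Lgr5 and Lgr6), 4 R-spondins and 8 secreted inhibitors of the Dkk and Sfrp families. The cells were mouse embryonic stem cells of the CJ9 line, either wild type (WT) or of genotype arid4b∆ (written arid4b-delta), that had been directed for 5 days towards endoderm or towards mesoderm and were fixed with formaldehyde for 8 min before ChIP-seq. The Arid4b protein belongs to the Sin3 histone deacetylase complex. H3K4me3, H3K27me3 and H3K27ac were each measured in the 4 combinations of genotype and lineage, with 1 library per group. With no replicates no test between groups was possible, and the 95% intervals given with shares (exact, Clopper-Pearson) describe counting error alone. Neither the deleted part of Arid4b nor the number of mutant clones is given in the labels, and peak lists of histone marks do not check the deletion.

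A gene was counted as marked when a deposited peak came within 1000 bp of either end of its gene model. The lists held 6150 to 35884 peaks, and for each mark and lineage the WT list was the shorter one. The lists carry no depth. Fold enrichment below is the authors' own value for the strongest peak near the gene, relative to background, and ranks peaks within 1 list; values from different lists stand side by side without a comparison. WT mesoderm H3K27me3 covered least, 6.91 Mb of genome against 16.9 Mb in arid4b-delta mesoderm, 14.1 Mb in WT endoderm and 21.4 Mb in arid4b-delta endoderm. Of 7 endoderm marker genes, 0 carried H3K27ac in any library, so the endoderm label has no acetylated defining gene in these lists. Of 8 mesoderm markers, 5 (T, Tbx6, Pdgfra, Foxc1 and Twist1) carried it in WT mesoderm and 0 in the other 3 libraries. Of 5 pluripotency genes, Pou5f1 and Sox2 carried it in all 4 libraries, Nanog in WT endoderm and arid4b-delta mesoderm, and Zfp42 and Esrrb in none. Of 4 neuroectoderm genes, Nes carried it in arid4b-delta mesoderm alone and the rest in no library. Among fibroblast and blood genes, 0 of 5 and 0 of 3 carried it in any.

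Wnt proteins are lipid-modified secreted ligands that bind Frizzled receptors together with Lrp5 or Lrp6 and stabilise beta-catenin, or act without it. Dkk proteins block Lrp5 and Lrp6, Sfrp proteins bind Wnts, and R-spondins act through Lgr receptors to keep Frizzled proteins at the cell surface. In the gastrulating embryo this pathway forms the primitive streak and posterior mesoderm. Many developmental genes of this kind carry H3K4me3, a mark of active and poised promoters, together with H3K27me3, the Polycomb mark, in stem cells. H3K27ac marks active promoters and enhancers.

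Most of the 46 genes carried H3K4me3, most carried H3K27me3, and few carried H3K27ac. H3K4me3 was at 31 of 46 genes in WT endoderm (67.4%, interval 52.0 to 80.5), where 53.3% of all genes had it, and at 40 (background 58.6%) in endoderm of the mutant. In mesoderm it was at 37 genes in WT (55.9% of all genes) and 40 in arid4b-delta (59.7%). H3K27me3 was at 32 genes in WT endoderm (69.6%, interval 54.2 to 82.3), against 14.4% of all genes, and at 35 in endoderm of the mutant (17.2%). In mesoderm it was at 24 genes in WT (52.2%, interval 36.9 to 67.1), against 9.34% of all genes, and at 38 in arid4b-delta (82.6%, interval 68.6 to 92.2), against 16.3%. In endoderm H3K27ac was at 7 genes in WT (background 26.6%) and 8 in arid4b-delta (26.4%). In mesoderm it was at 10 genes in WT (29.6%) and 8 in arid4b-delta (31.5%). The share with H3K27me3 thus lay far above that of all genes in each library, and the share with H3K27ac, 15.2% to 21.7%, below it, although the H3K27ac intervals reached the background in all but the last of these libraries, where the upper bound was 31.4%. Away from the ends, inside the gene or up to 10000 bp beyond it, H3K27ac was at 13 of the 46 genes in WT endoderm (21.7% of all genes) and 10 in arid4b-delta endoderm (33.0%). In mesoderm it was there at 8 genes in WT (21.1%) and 10 in arid4b-delta (29.4%).

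**Figure D1:**
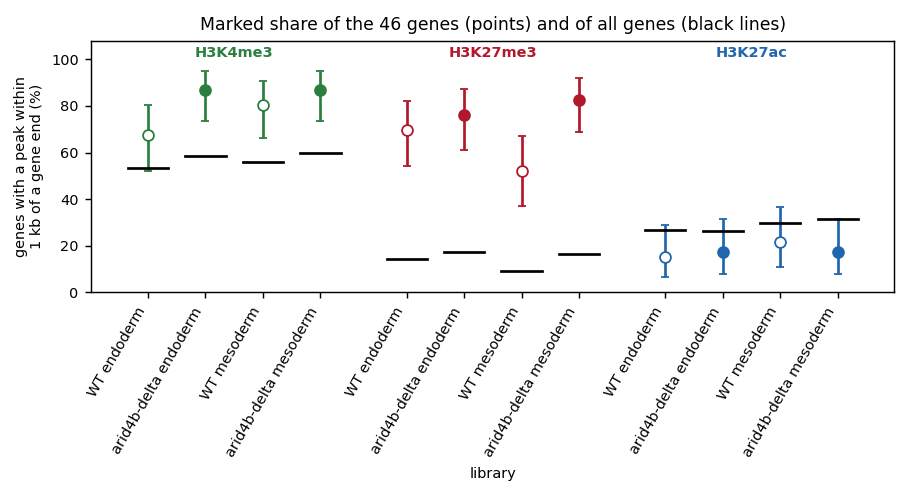
Percent of the 46 genes with a peak within 1000 bp of a gene end in each of the 12 libraries (points, open for WT and filled for arid4b-delta, with exact Clopper-Pearson 95% intervals) and percent of all 21883 genes (black lines). H3K27me3 lies between 52.2% and 82.6% of the 46 genes against 9.34% to 17.2% of all genes.

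H3K4me3 and H3K27me3 together, with or without H3K27ac, were at 20 of 46 genes in WT endoderm (10.1% of all genes), 31 in arid4b-delta endoderm (14.2%), 20 in WT mesoderm (7.64%) and 34 in arid4b-delta mesoderm (14.2%). In a population of cells this cannot be told apart from the marks lying in different cells, nor a mark in part of the cells from a weak mark in all. At the gene ends, the 13 genes with H3K4me3 and H3K27me3 and no H3K27ac in every group were Wnt2b, Wnt4, Wnt5b, Wnt7a, Wnt7b, Wnt9a, Wnt10a, Wnt11, Fzd4, Fzd9, Sfrp1, Lgr6 and Rspo1. Fzd2, Fzd5 and Fzd7 had H3K4me3 and H3K27ac without H3K27me3 there in every group. Inside the gene, H3K27me3 covered 19.7% of Fzd2 in arid4b-delta endoderm, 8.99% of it in arid4b-delta mesoderm and 6.41% of Fzd5 in WT endoderm. Dkk3 and Dkk4 had none of the 3 marks at their ends in any library, and H3K27me3 covered 1.31% of Dkk3 in arid4b-delta endoderm.

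**Figure D2:**
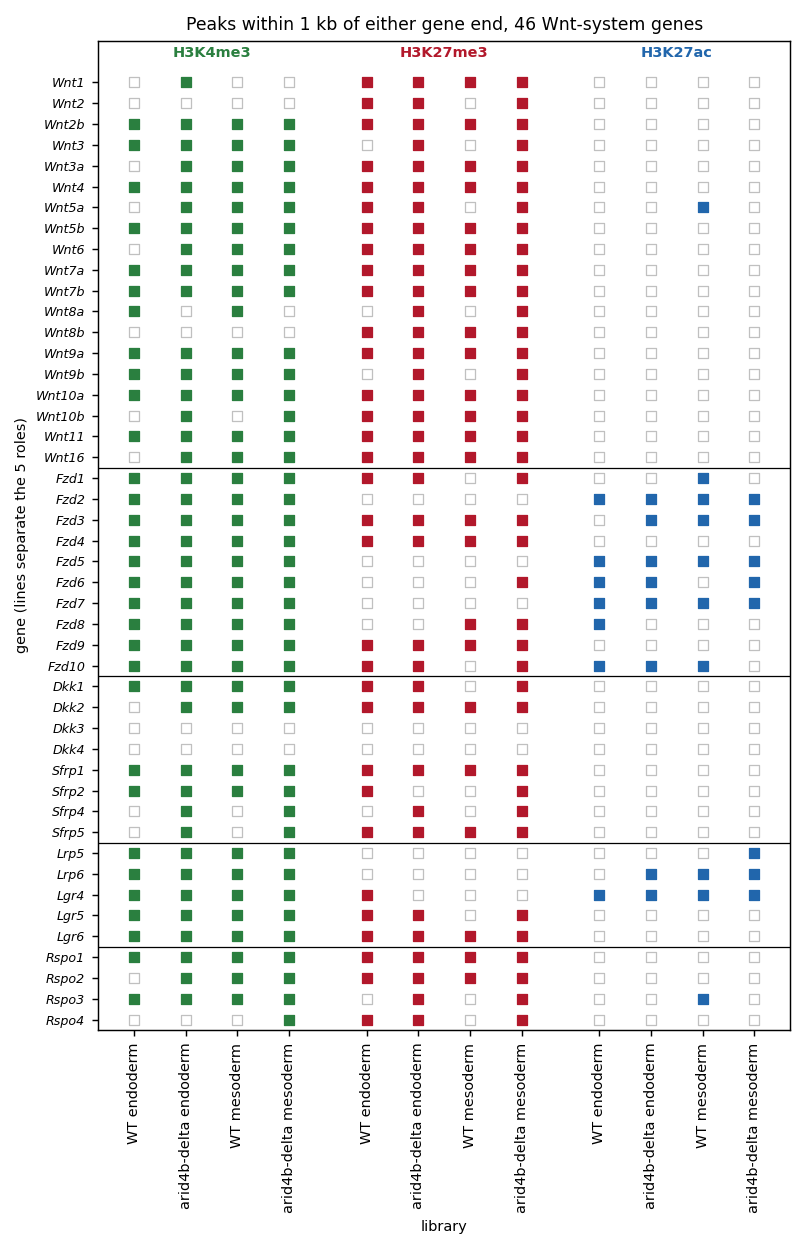
Presence (filled) or absence (open) of a peak within 1000 bp of either gene end, for the 46 genes (vertical axis, grouped as ligands, Frizzled receptors, inhibitors, other receptors and R-spondins) in the 12 libraries (horizontal axis). All 19 ligands have H3K27me3 in both arid4b-delta libraries, and H3K27ac is at 1 ligand in 1 library.

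Between genotypes, most differing calls lay in arid4b-delta, where the lists were longer. H3K4me3 was found only in arid4b-delta at 10 of the 46 genes in endoderm, against 5.37% of all genes, and at 4 in mesoderm (3.92%). It was in WT only at 1 gene, Wnt8a, in endoderm (0.101%) and at the same gene in mesoderm (0.119%). H3K27me3 was in arid4b-delta only at 5 genes in endoderm (4.89%) and at 14 in mesoderm (7.69%). The 14 genes are 30.4% of the 46 (interval 17.7 to 45.8). The interval takes genes as independent, but Wnt3 and Wnt9b were called from the same peak. At the listed starts of Wnt2 and Wnt9b, WT mesoderm had H3K27me3 as well. H3K27me3 was in WT only at 2 genes in endoderm (2.05%) and 0 in mesoderm (0.727%). H3K27ac was in arid4b-delta only at 2 genes in endoderm (4.49%) and 2 in mesoderm (5.61%), and in WT only at 1 gene in endoderm (4.7%) and 4 in mesoderm (3.71%). The intervals of all 4 H3K27ac shares hold the background, as do those of the endoderm H3K27me3 and mesoderm H3K4me3 shares in arid4b-delta only. The mesoderm H3K27me3 count can also be read against genes without H3K27me3 at a gene end in WT mesoderm. It was 14 of 22 such members, against 8.48% of all such genes. Of the 14, 11 had H3K4me3 in WT mesoderm, near the share of all members (37 of 46), beside 55.9% of all genes. This was not counted over all genes with the same H3K27me3 call. In lists matched in length, 10 genes had mesoderm H3K27me3 in arid4b-delta only and 4 (Wnt11, Fzd3, Fzd4 and Rspo2) in WT only. The same matching turned the endoderm counts to 3 for arid4b-delta and 9 for WT, so the direction in endoderm changed with list length.

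Of the 5 groups, the ligands had the highest share with H3K27me3 in both WT libraries; in both arid4b-delta libraries the R-spondins were also marked throughout. Of 19 Wnt genes, 16 carried it in WT endoderm, 14 in WT mesoderm and all 19 in both arid4b-delta libraries. At Wnt8b the peaks lay at the 3 prime end, and its listed start had no peak of any mark in any library. The ligands with H3K27me3 in arid4b-delta only in both lineages were Wnt3, Wnt8a and Wnt9b, and Wnt2 and Wnt5a joined them in mesoderm. Wnt3 (gene 22415, chromosome 11, 103774175 to 103818021, mm10) is needed for the primitive streak to form. Its peaks had an authors' fold enrichment of 11.5 in arid4b-delta endoderm (-log10 q of 56.7) and 2.12 in arid4b-delta mesoderm. The nearest WT peaks were 17248 bp away in endoderm and 23333 bp in mesoderm. H3K4me3 lay at the Wnt3 start in all 4 libraries, with fold enrichment 8.55 in WT endoderm, 10.1 in arid4b-delta endoderm, 11.7 in WT mesoderm and 16.9 in arid4b-delta mesoderm. Wnt9b is not a separate observation, because its gene model runs into that of Wnt3, with ends 1097 bp apart, and its calls come from the same peaks. At the start site that the RefSeq promoter table gives for Wnt9b, 22459 bp inside the model, H3K4me3 and H3K27me3 were present in all 4 libraries.

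Wnt8a, a ligand of the early posterior embryo (gene 20890, chromosome 18, 34542327 to 34548061), differed between genotypes in 2 marks, at opposite ends of the gene. H3K4me3 at its lower-coordinate end was in WT only, with fold enrichment 4.17 in endoderm and 7.65 in mesoderm, and the nearest arid4b-delta peaks were 34656 and 29862 bp away. H3K27me3 at its other end was in arid4b-delta only, with fold enrichment 3.48 in endoderm and 6.44 in mesoderm, and the nearest WT peaks were 2193 and 313742 bp away. The WT H3K4me3 peaks of Wnt8a were higher than only 5.38% of the list in endoderm (146 bp wide) and 39.8% in mesoderm. In the upper 50% of each list, the genes with H3K4me3 in WT only were Wnt3, Wnt9b and Sfrp2 in endoderm and Fzd6 in mesoderm. With all peaks, Wnt8a was the only one of the 46 genes with H3K4me3 in WT and not in arid4b-delta. H3K27ac lay 1323 and 2035 bp beyond the gene in WT endoderm and 3219 bp beyond it in WT mesoderm, and no arid4b-delta H3K27ac peak lay within 10000 bp.

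Wnt5a, the main ligand that acts without beta-catenin (gene 22418, chromosome 14, 28504543 to 28527448), was the 1 ligand with H3K27ac at a gene end, and only in WT mesoderm. Broad H3K27me3 peaks of 9927 bp in WT endoderm, 13494 bp in arid4b-delta endoderm and 10800 bp in arid4b-delta mesoderm spanned its lower-coordinate end, while WT mesoderm held only a 636 bp peak 5245 bp away. The fold enrichment of these peaks was low, at 1.78, 1.55 and 1.59. H3K4me3 reached that end in 3 libraries, and in WT endoderm the nearest peak lay 1048 bp away, just outside the window. Wnt2 had H3K27me3 in WT mesoderm as well at its listed start site, 2327 bp inside the gene model, so its mesoderm call (fold enrichment 2.62 in arid4b-delta) rests on the model's end.

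H3K4me3 was in arid4b-delta endoderm and not in WT endoderm at 6 ligands: Wnt1, Wnt3a, Wnt5a, Wnt6, Wnt10b and Wnt16. Of these, Wnt3a (fold enrichment 12.9), Wnt5a (13.8) and Wnt6 (11.0) lay near or above the list median of 11.4, while Wnt16 had 5.45 and Wnt1 (3.69) was higher than only 3.06% of the peaks in its list. The Wnt1 peak lay at the 3 prime end of the gene, and its listed start had no H3K4me3 in any library. The nearest WT peak lay 1010 bp from the Wnt6 end and 16317 bp from Wnt3a. At the listed start of Wnt6, 13430 bp inside its model, H3K4me3 and H3K27me3 were present in all 4 libraries, so its call too rests on the model's end. All but Wnt1 and Wnt10b were marked in WT mesoderm too. Wnt10b was in arid4b-delta only in both lineages, with fold enrichment 7.1 in endoderm and 6.98 in mesoderm. Wnt2 and Wnt8b had H3K4me3 at no gene end in any library. At its listed start site Wnt2 had it in every library but WT endoderm.

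H3K27me3 was also measured across pairs of neighbouring ligand genes. Wnt6 and Wnt10a lie 6696 bp apart on chromosome 1, and across their 49835 bp H3K27me3 covered 67.5% in WT endoderm, 71.7% in arid4b-delta endoderm, 21.8% in WT mesoderm and 76.5% in arid4b-delta mesoderm. In arid4b-delta mesoderm 1 peak of 29184 bp (chromosome 1, 74780188 to 74809371) ran from inside Wnt6 past Wnt10a, where the longest WT mesoderm peak was 3248 bp. Wnt10b and Wnt1, on chromosome 15, were covered over 74.8%, 83.0%, 49.6% and 78.8% of their 23119 bp in the same order. WT mesoderm was the lowest of the 4 libraries at these pairs, at Wnt3a and Wnt9a (9.46% against 12.3% to 16.5%) and at Wnt3 and Wnt9b (3.25% against 6.96% to 18.5%).

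Among the Frizzled receptors, 3 of 10 had H3K27ac and no H3K27me3 at their ends in every library, 2 had H3K27me3 and no H3K27ac there, and 5 differed between libraries. All 10 carried H3K4me3 in all 4 libraries. Fzd2, Fzd5 and Fzd7 carried H3K27ac in all 4, with fold enrichment at Fzd2 of 19.6 in WT endoderm, 21.0 in arid4b-delta endoderm, 20.4 in WT mesoderm and 18.4 in arid4b-delta mesoderm. At Fzd7 the values were 16.8, 11.2, 8.25 and 10.6 in the same order, and at Fzd5 10.8, 10.5, 4.88 and 14.3. Fzd4 and Fzd9 carried H3K27me3 in all 4 libraries and H3K27ac in none. All 3 marks came within 1000 bp of the same gene end at Fzd3 in 3 libraries, at Fzd10 in both endoderm libraries and at Fzd6 in arid4b-delta mesoderm. H3K27ac and H3K27me3 peaks overlapped at Fzd3 in arid4b-delta endoderm and at Fzd6 in arid4b-delta mesoderm, and not in the other cases.

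Fzd10 (gene 93897, chromosome 5, 128601106 to 128604093) had H3K27ac with fold enrichment 7.27 in WT endoderm, 5.08 in arid4b-delta endoderm and 8.61 in WT mesoderm, and no peak in arid4b-delta mesoderm, where the nearest lay 418325 bp away. H3K27me3 showed the reverse in mesoderm: an 8039 bp peak (128595175 to 128603213, fold enrichment 3.03) in arid4b-delta, and no WT peak within 167496 bp. In endoderm both genotypes had H3K27me3 there. Fzd1 (gene 14362, chromosome 5, 4753839 to 4758216) had H3K27ac in WT mesoderm alone (fold enrichment 9.1, 481 bp). H3K27me3 came within 1000 bp of its ends in the other 3 libraries, with fold enrichment 1.58, 1.44 and 1.77, and in WT mesoderm the nearest peak lay 1361 bp away, inside the gene.

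Fzd8 (chromosome 18) had H3K27ac in WT endoderm alone (fold enrichment 7.27), and H3K27me3 in both mesoderm libraries, at 1.94 in WT and 4.77 in arid4b-delta. Endoderm H3K27me3 peaks lay inside this gene, outside the window, 1701 bp from the same end in WT and 1575 bp in arid4b-delta. Fzd6 lacked H3K27ac in WT mesoderm and had it in the other 3 libraries, at 4.07 in WT endoderm, 4.64 in arid4b-delta endoderm and 6.35 in arid4b-delta mesoderm. Its H3K27me3 peak in arid4b-delta mesoderm was weak, with fold enrichment 1.25 and a -log10 q of 0.516. Fzd3 lacked H3K27ac in WT endoderm and had it at 5.37, 6.72 and 4.87 in the others, and the nearest WT endoderm peak was 3895 bp away. It had H3K27me3 in all 4 libraries, at 1.62, 1.73, 1.18 and 1.96. The WT mesoderm H3K27me3 peak (1.18) was weak, with a -log10 q of 0.511. In neither mesoderm library did H3K27me3 at Fzd3 overlap the H3K27ac peak. With broad peaks at a -log10 q of at least 1, Fzd3 had H3K27me3 at its ends in neither WT library.

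Of the other receptors, Lgr4, an R-spondin receptor, was the one with H3K27ac in all 4 libraries. Its H3K27ac fold enrichment was 24.9 in WT endoderm, 22.6 in arid4b-delta endoderm, 17.8 in WT mesoderm and 20.9 in arid4b-delta mesoderm, above at least 90.8% of the peaks in each list. It had H3K27me3 in WT endoderm alone (2.18, 147 bp). Lrp6, a Wnt co-receptor, had H3K27ac in 3 libraries (15.3 in arid4b-delta endoderm, 18.8 in WT mesoderm and 13.6 in arid4b-delta mesoderm) and none within 225352 bp in WT endoderm. Its relative Lrp5 had a 194 bp peak in arid4b-delta mesoderm alone (7.2), with a WT mesoderm peak 1045 bp from the same end, just outside the window. Lrp5 and Lrp6 had no H3K27me3 at their ends in any library, and Lgr6 had it in all 4. Lgr5, an R-spondin receptor and Wnt target, had it in 3 (1.95 in WT endoderm, 1.81 in arid4b-delta endoderm and 2.09 in arid4b-delta mesoderm) and not in WT mesoderm, where the nearest peak was 583942 bp away.

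The 4 R-spondin genes all had H3K27me3 in both arid4b-delta libraries. Rspo1 and Rspo2 had it in both WT libraries as well, Rspo4 in WT endoderm, and Rspo3 in neither. At Rspo4 the fold enrichment was 2.23 in WT endoderm, 4.03 in arid4b-delta endoderm and 4.53 in arid4b-delta mesoderm, and H3K4me3 was in arid4b-delta mesoderm alone (5.53). Rspo2 had H3K4me3 in every library but WT endoderm, at 9.43, 9.05 and 10.5. Rspo3 (gene 72780, chromosome 10, 29453106 to 29535867) had a 146 bp H3K27ac peak in WT mesoderm (fold enrichment 4.88) and none in the other libraries. Its H3K27me3 was weak, at 1.58 in arid4b-delta endoderm and 1.7 in arid4b-delta mesoderm, and a WT endoderm peak lay 1224 bp from the same end.

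No inhibitor gene carried H3K27ac at a gene end in any library. Dkk1, an antagonist of Lrp5 and Lrp6 that shapes the anterior embryo (gene 13380, chromosome 19, 30545876 to 30549496), had H3K27me3 at 3.56 in WT endoderm, 3.52 in arid4b-delta endoderm and 7.56 in arid4b-delta mesoderm. In WT mesoderm the nearest peak was 1114200 bp away, while H3K4me3 was present in all 4 libraries. Sfrp4 had both marks in arid4b-delta only, in both lineages: H3K4me3 at 4.63 in endoderm and 9.22 in mesoderm, and H3K27me3 at 1.75 and 3.36. Sfrp5 had H3K4me3 in arid4b-delta only in both lineages (4.81 and 7.48) and H3K27me3 throughout. Sfrp2 had H3K27me3 in WT endoderm (2.15) and arid4b-delta mesoderm (2.33) and in neither of the other libraries. Dkk2 had H3K27me3 in all 4 libraries (2.17, 5.44, 2.97 and 4.21) and lacked H3K4me3 in WT endoderm alone, with 6.36 in arid4b-delta endoderm.

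Measured over the whole gene, H3K27me3 covered more of most members in arid4b-delta. In mesoderm the covered share was larger in arid4b-delta at 36 genes and larger in WT at 2 (Wnt9a and Fzd8), of 39 with any. Of all genes with any H3K27me3 in mesoderm, 87.0% were covered more in arid4b-delta, so this direction was shared with the background. In endoderm it was larger in arid4b-delta at 32 of 41 genes with any, against 72.6% of all such genes. The median covered share over the 39 genes was 3.26% in WT and 15.0% in arid4b-delta mesoderm, beside 0.314% and 3.0% over all such genes. The largest mesoderm differences in length were at Wnt6 (4109 bp in WT and 19268 bp in arid4b-delta) and Wnt5a (636 and 11175 bp). Dkk1 was covered over 0% in WT mesoderm and 72.1% in arid4b-delta, and Fzd10 over 0% and 70.5%. With lists matched in length the count larger in arid4b-delta was 19 of the 46 genes in endoderm and 27 in mesoderm, without a share of all genes beside it. At Wnt1 100% of the gene was covered in all 4 libraries. In endoderm 7 genes in WT and 10 in arid4b-delta had at least 50% of their length covered. In mesoderm the numbers were 3 and 9. The share of all genes over that cut was not counted, so these numbers are not read as a result about the members.

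**Figure D3:**
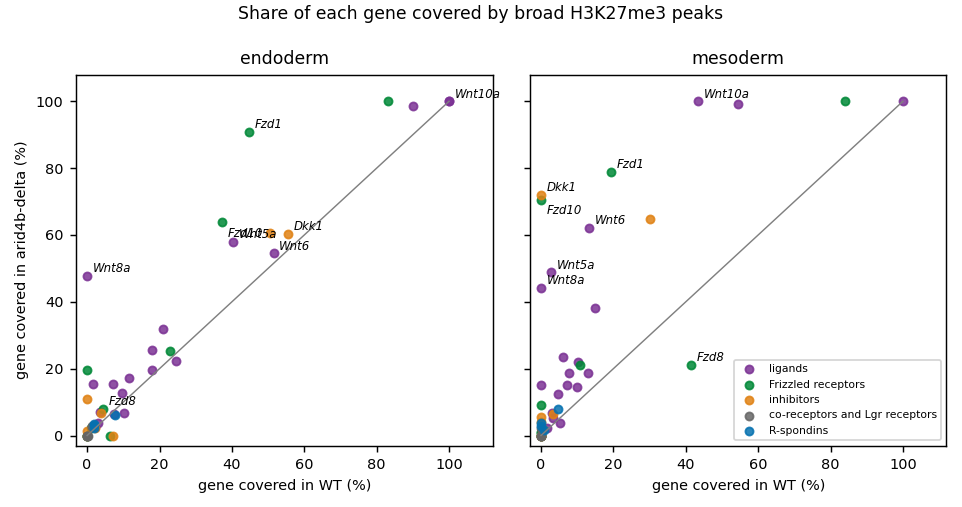
Percent of each of the 46 genes covered by broad H3K27me3 peaks in WT (horizontal) and arid4b-delta (vertical), in endoderm (left) and mesoderm (right), coloured by role; the grey line marks equal shares. In mesoderm 36 genes lie above the line and Fzd8 lies furthest below it.

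The 4 genes with mesoderm H3K27ac in WT only, Wnt5a, Fzd1, Fzd10 and Rspo3, were all among the 14 with mesoderm H3K27me3 in arid4b-delta only. Among all 812 genes with mesoderm H3K27ac in WT only, 95 (11.7%) had H3K27me3 in arid4b-delta only, which is 0.434% of all genes. All 4 kept H3K4me3 at the same end in both genotypes, at 10.1 and 15.7 for Wnt5a, 14.1 and 18.1 for Fzd1, 10.4 and 13.4 for Fzd10, and 11.9 and 14.0 for Rspo3 (WT, then arid4b-delta mesoderm). With lists matched in length, or restricted to peaks in the upper 50% of their list, 1 gene (Fzd10) had both calls; with broad peaks at a -log10 q of at least 1, 3 did (Wnt5a, Fzd1 and Fzd10). In the upper 50%, the WT H3K27ac peaks of Wnt5a and Rspo3 dropped out as well. With at least 200 bp of overlap between peak and window, Rspo3 dropped out. The mesoderm markers T and Twist1, which are not among the 46, had the same calls in mesoderm: H3K27ac in WT alone and H3K27me3 in arid4b-delta alone. The remaining markers with WT mesoderm H3K27ac did not: Pdgfra and Foxc1 had mesoderm H3K27me3 in both genotypes and Tbx6 in neither. As given above, 5 of 8 mesoderm markers carried H3K27ac in WT mesoderm and 0 in arid4b-delta mesoderm; their part in the calls at the 4 genes was not tested.

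**Figure D4:**
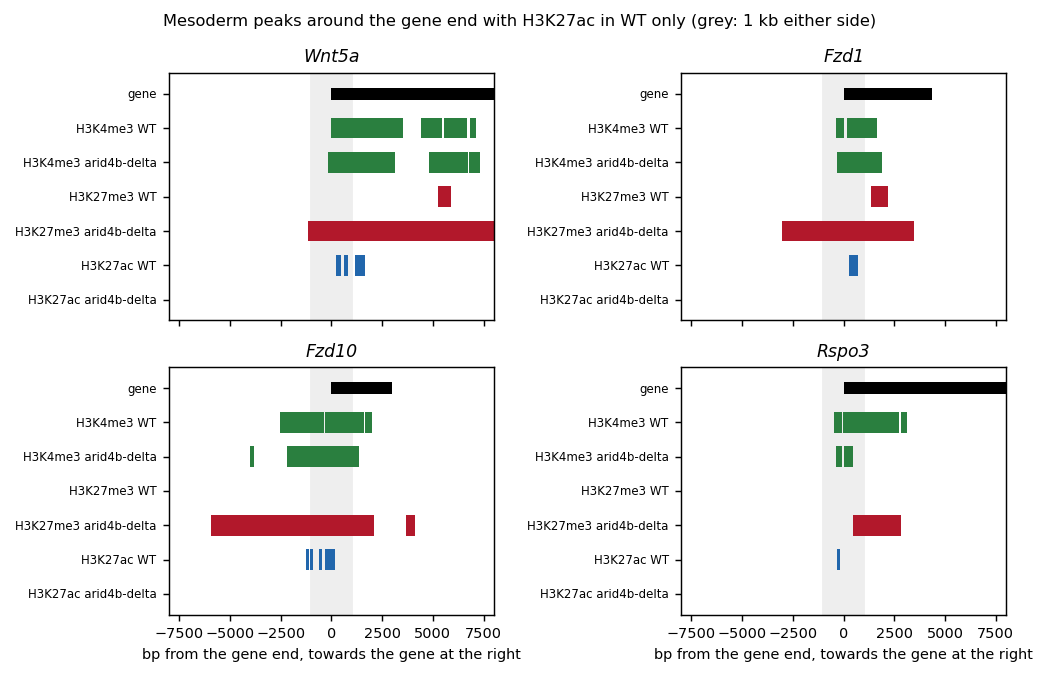
Mesoderm peaks of the 3 marks in WT and arid4b-delta around Wnt5a, Fzd1, Fzd10 and Rspo3, drawn to scale as distance in bp from the gene end that carries WT H3K27ac, with the gene running to the right. WT H3K27ac peaks (146 to 504 bp within the grey window of 1000 bp either side) face a broad arid4b-delta H3K27me3 peak of 2348 to 10800 bp that overlaps the WT H3K27ac peak at Wnt5a, Fzd1 and Fzd10 and lies beside it at Rspo3.

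The 250 bases upstream of the start are shown for 4 genes, in the sense of transcription and with CpG dinucleotides in capitals, because these are the stretches whose mark differed. Fzd1 and Fzd10 differed in mesoderm H3K27ac. Dkk1 and Wnt3a had the largest mesoderm difference in H3K27me3 length among the other genes with 1 listed start, an arid4b-delta peak on it and no gene model across it. Sequences are RefSeq's, build GRCm38.p6 (mm10): Fzd1 at chr5:4758217-4758466 on the minus strand, Fzd10 at chr5:128600856-128601105 on the plus strand, Dkk1 at chr19:30549497-30549746 on the minus strand and Wnt3a at chr11:59290752-59291001 on the minus strand.
Fzd1: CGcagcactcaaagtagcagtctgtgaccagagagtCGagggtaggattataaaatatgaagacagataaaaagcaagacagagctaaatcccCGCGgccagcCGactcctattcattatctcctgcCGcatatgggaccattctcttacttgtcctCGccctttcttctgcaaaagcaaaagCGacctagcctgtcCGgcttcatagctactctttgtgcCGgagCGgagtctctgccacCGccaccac
Fzd10: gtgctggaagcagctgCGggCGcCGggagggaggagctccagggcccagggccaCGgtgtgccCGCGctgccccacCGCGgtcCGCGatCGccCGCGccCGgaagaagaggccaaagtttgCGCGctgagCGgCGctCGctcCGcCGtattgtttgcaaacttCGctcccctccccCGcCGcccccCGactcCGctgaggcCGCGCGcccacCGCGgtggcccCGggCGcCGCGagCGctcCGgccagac
Dkk1: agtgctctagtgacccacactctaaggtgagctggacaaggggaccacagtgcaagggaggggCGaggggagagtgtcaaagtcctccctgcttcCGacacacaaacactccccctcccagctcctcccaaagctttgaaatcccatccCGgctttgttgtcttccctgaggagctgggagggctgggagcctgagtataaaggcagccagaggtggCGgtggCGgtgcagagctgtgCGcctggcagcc
Wnt3a: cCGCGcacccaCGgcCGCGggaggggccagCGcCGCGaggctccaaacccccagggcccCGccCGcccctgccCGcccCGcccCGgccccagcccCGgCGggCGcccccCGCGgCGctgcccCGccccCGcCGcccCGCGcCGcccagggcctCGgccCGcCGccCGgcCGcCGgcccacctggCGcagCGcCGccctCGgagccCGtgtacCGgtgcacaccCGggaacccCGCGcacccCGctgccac
The Fzd10 stretch, with 37 CpGs and 76.4% G and C, lay wholly under H3K27ac in WT mesoderm and wholly under H3K27me3 in arid4b-delta mesoderm. The Fzd1 stretch has 12 CpGs. It lay under H3K27me3 over all 250 bases in arid4b-delta mesoderm and under no H3K27ac, since the WT peak sits downstream of the start. The Dkk1 stretch has 6 CpGs and lay under arid4b-delta mesoderm H3K27me3 for 212 bases. The Wnt3a stretch has 41 CpGs and lay under it for all 250. None of the 4 stretches was under WT mesoderm H3K27me3. The Wnt3a stretch, however, lay in a gap between WT mesoderm H3K27me3 peaks at 59287900 to 59290706 and 59291426 to 59292352. Wnt3a had H3K27me3 at this gene end in all 4 libraries.

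Of the 46 genes, 29 have a sequence in the RefSeq promoter table. The others are Wnt5a, Wnt7b, Wnt8a, Wnt10a, Fzd2, Fzd3, Fzd6, Fzd8, Dkk3, Dkk4, Sfrp1, Sfrp4, Lrp5, Lrp6, Lgr5, Rspo2 and Rspo3. The 250 upstream bases of the 29, taken at the start of lowest coordinate where several are listed, held a median of 22.0 CpGs (5 to 48), against 9.0 over 17491 genes in the table, and a median of 68.0% G and C against 55.2%. The motif CTTTGAT, a core of sites bound by Tcf and Lef factors, searched on both strands (ATCAAAG on the other), was in 2 of 29 stretches, those of Wnt5b and Wnt11, and in 2.86% of all.

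Between lineages of the same genotype, more members differed in H3K27me3 in WT than in arid4b-delta. In WT, 9 members had H3K27me3 in endoderm only (6.07% of all genes) and 1, Fzd8, in mesoderm only (1.01%). The 9 were Wnt2, Wnt5a, Fzd1, Fzd10, Dkk1, Sfrp2, Lgr4, Lgr5 and Rspo4. In arid4b-delta, 0 members had it in endoderm only (3.31%) and 3, Fzd6, Fzd8 and Sfrp2, in mesoderm only (2.37%), with 35 marked in both. The Fzd8 calls concern its gene end alone, since endoderm peaks of both genotypes lay inside the gene. Of the 14 genes with mesoderm H3K27me3 in arid4b-delta only, 12 had it in arid4b-delta endoderm and 8 in WT endoderm. Of all 1682 genes with that call, 72.7% had it in arid4b-delta endoderm and 50.7% in WT endoderm. The short WT mesoderm list moves with the WT counts and with the 14 genes, and its part in them was not tested beyond the lists matched in length, where WT had 6 members in endoderm only and 6 in mesoderm only, and arid4b-delta 0 and 13.

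H3K4me3 was in WT mesoderm and not WT endoderm at 6 members (3.15% of all genes), Wnt3a, Wnt5a, Wnt6, Wnt16, Dkk2 and Rspo2, and in WT endoderm only at 0 (0.548%). In arid4b-delta it was at 1 in endoderm only (Wnt1, 0.338%) and 1 in mesoderm only (Rspo4, 1.48%). The Wnt1 peak lay at its 3 prime end, and an arid4b-delta mesoderm peak lay 1156 bp from that end, just outside the window. All 6 genes with H3K4me3 in WT mesoderm and not WT endoderm also had it in both arid4b-delta libraries. H3K27ac in WT was in endoderm only at 2 members, Fzd6 and Fzd8 (3.4%), and in mesoderm only at 5, Wnt5a, Fzd1, Fzd3, Lrp6 and Rspo3 (6.36%). In arid4b-delta it was in endoderm only at Fzd10 (1 gene, 2.36%) and in mesoderm only at Lrp5 (1 gene, 7.43%).

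The 41 other genes of the pathway were counted in the same way. H3K4me3 was at 36 of 41 in 3 libraries (53.3% to 58.6% of all genes) and 37 in arid4b-delta mesoderm (59.7%). H3K27me3 was at 19 in WT endoderm (14.4%), 16 in arid4b-delta endoderm (17.2%), 10 in WT mesoderm (9.34%) and 19 in arid4b-delta mesoderm (16.3%). In the same order H3K27ac was at 12 (26.6%), 14 (26.4%), 21 (29.6%) and 20 (31.5%), so its endoderm counts lay near the share of all genes. The 17 intracellular transducers, beside the same shares of all genes, had H3K27ac at 10, 10, 12 and 14 genes and H3K27me3 at 2, 2, 0 and 3. Mesoderm H3K27me3 was in arid4b-delta only at 10 of the 41 genes (7.69% of all genes), among them the secreted Wnt antagonist Frzb, the receptor Ror2 and the receptor-degrading ligases Znrf3 and Rnf43, and in WT only at 1 gene (0.727%), the secreted inhibitor Wif1. In endoderm H3K27me3 was in arid4b-delta only at 0 of them (4.89%) and in WT only at 3 (2.05%), Wls, Wif1 and Kremen1. Mesoderm H3K27ac was in WT only at 5 (3.71%), namely Porcn (fold enrichment 4.89), which encodes the enzyme that lipidates Wnts, Frzb (7.17), Lef1 (13.3), T (6.77) and Cdx2 (7.11), and in arid4b-delta only at 4 (5.61%), Dvl1 (7.15), Gsk3a (6.98), Bcl9l (5.92) and Myc (7.3). In endoderm it was in arid4b-delta only at 3 (4.49%), Znrf3 (7.37), Gsk3a (5.42) and Myc (7.89), and in WT only at 1 (4.7%), Tcf7 (7.02).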

How the data were processed

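Peak lists of 12 ChIP libraries were used; the 4 input DNA samples were not analysed here. Bowtie2, Picard and MACS2, with build mm10, are what the authors used per the submitters' processing notes; versions and settings are not given in the sources used here. H3K4me3 and H3K27ac lists are narrow peaks and H3K27me3 lists broad peaks, each from 1 library. Deposited columns hold a score per peak (not used), the authors' fold enrichment (a ratio over background), and the authors' -log10 p (not used) and -log10 q; in narrow lists the summit offset was not used. Folds describe or rank peaks within a list and show no change between lists. Broad lists go down to a -log10 q of 0.307, so weak broad peaks are included.

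Gene ends came from a RefSeq table of GRCm38.p6 (mm10), without exons. A gene was marked when a peak overlapped by at least 1 bp the 1000 bp either side of an end. Strand and start sites were known for 29 members. For Wnt2, Wnt6 and Wnt9b no listed start lies within 1000 bp of a gene end. Covered shares are the percent of bases from gene start to end under H3K27me3 peaks. Analyses used Python 3.11.15, pandas 2.3.3 and scipy 1.17.1, and the overlap code was tested on simulated data. The members and lists were chosen with earlier results of these data known. All members are accounted for; values are given for those with a peak in 1 genotype only or with H3K27ac at a gene end. Alternatives were distances of 500 and 2500 bp, lists matched in length by fold enrichment, the upper 50% of each list, 200 bp of overlap, listed start sites only, and, chosen after seeing the data, a peak anywhere in the gene, broad peaks with a -log10 q of at least 1, and every alternative for genes with both mesoderm calls. Covered shares were also taken with 1000 bp added at each end.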

Additional observations from a re-analysis of the deposited data

Results flagged for a closer look

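Sfrp2, a secreted Wnt-binding inhibitor, had H3K27me3 calls that ran in opposite directions in the 2 lineages. In endoderm the peak was in WT only, with fold enrichment 2.15 over 613 bp, and in mesoderm in arid4b-delta only, with 2.33 over 477 bp. The nearest peaks of the other genotype were 24387 and 382346 bp away. With 1 library per group the difference between lineages was not tested. The other 45 genes had no opposite calls in any of the 3 marks.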

How the results depend on the processing

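The alternatives were compared by count, and the genes behind a similar count could differ. In the upper 50% of each list, H3K4me3 mesoderm in WT only was Fzd6 in place of Wnt8a. There, H3K4me3 mesoderm in arid4b-delta only was 6 genes, none of them among the 4 in the report. For H3K4me3 endoderm in arid4b-delta only, 11 genes were called there, with Wnt3a and Wnt5a alone kept of the 10. Of 192 counts recomputed for 27 results, 119 stayed within 1.5 times the value in the report. The 73 others follow, each after the value in the report, and unless the setting counts fewer members or peaks by construction the cause was not tested. Within 500 bp of a gene end, 1 became 0 for arid4b-delta H3K4me3 in endoderm only. Within 2500 bp, 0 became 1 for arid4b-delta H3K27me3 in endoderm only. 1 became 0 for WT H3K27me3 in mesoderm only and arid4b-delta H3K4me3 in endoderm only. 1 became 2 for arid4b-delta H3K27ac in mesoderm only. 1 became 4 for H3K27ac endoderm in WT only. 2 became 5 for WT H3K27ac in endoderm only. In lists matched in length, 0 became 4 for H3K27me3 mesoderm in WT only. 1 became 0 for arid4b-delta H3K27ac in endoderm only. 1 became 3 for H3K27ac endoderm in WT only and arid4b-delta H3K27ac in mesoderm only. 1 became 6 for WT H3K27me3 in mesoderm only. 2 became 1 for H3K27ac endoderm in arid4b-delta only, H3K27ac mesoderm in arid4b-delta only and WT H3K27ac in endoderm only. 2 became 9 for H3K27me3 endoderm in WT only. 3 became 13 for arid4b-delta H3K27me3 in mesoderm only. 4 became 1 for genes with both mesoderm calls. 5 became 3 for H3K27me3 endoderm in arid4b-delta only. 32 became 19 for members covered more in arid4b-delta endoderm. In the upper 50% of each list, 0 became 1 for WT H3K4me3 in endoderm only. 0 became 4 for H3K27me3 mesoderm in WT only. 0 became 7 for arid4b-delta H3K27me3 in endoderm only. 1 became 0 for arid4b-delta H3K27ac in endoderm only. 1 became 2 for H3K27ac endoderm in WT only and arid4b-delta H3K4me3 in endoderm only. 1 became 3 for H3K4me3 endoderm in WT only. 1 became 5 for arid4b-delta H3K4me3 in mesoderm only. 1 became 7 for WT H3K27me3 in mesoderm only. 2 became 1 for H3K27ac endoderm in arid4b-delta only. 4 became 1 for genes with both mesoderm calls. 4 became 2 for H3K27ac mesoderm in WT only. 5 became 2 for WT H3K27ac in mesoderm only. 5 became 9 for H3K27me3 endoderm in arid4b-delta only. 14 became 8 for H3K27me3 mesoderm in arid4b-delta only. 32 became 20 for members covered more in arid4b-delta endoderm. 36 became 21 for members covered more in arid4b-delta mesoderm. With at least 200 bp of overlap, 1 became 0 for H3K4me3 endoderm in WT only, arid4b-delta H3K4me3 in endoderm only and arid4b-delta H3K27ac in endoderm only. 2 became 1 for H3K27me3 endoderm in WT only, H3K27ac endoderm in arid4b-delta only, H3K27ac mesoderm in arid4b-delta only and WT H3K27ac in endoderm only. At the listed start sites, which only 29 members have, 1 became 0 for H3K4me3 endoderm in WT only, H3K4me3 mesoderm in WT only, H3K27ac endoderm in WT only, WT H3K27me3 in mesoderm only, arid4b-delta H3K4me3 in endoderm only and arid4b-delta H3K27ac in mesoderm only. 2 became 0 for H3K27ac endoderm in arid4b-delta only, H3K27ac mesoderm in arid4b-delta only and WT H3K27ac in endoderm only. 3 became 1 for arid4b-delta H3K27me3 in mesoderm only. 4 became 2 for H3K27ac mesoderm in WT only and genes with both mesoderm calls. 5 became 1 for H3K27me3 endoderm in arid4b-delta only and WT H3K27ac in mesoderm only. 10 became 6 for H3K4me3 endoderm in arid4b-delta only. 14 became 6 for H3K27me3 mesoderm in arid4b-delta only. With a peak anywhere in the gene, 0 became 1 for arid4b-delta H3K27me3 in endoderm only. 1 became 0 for WT H3K27me3 in mesoderm only and arid4b-delta H3K4me3 in endoderm only. 1 became 2 for arid4b-delta H3K27ac in endoderm only and arid4b-delta H3K27ac in mesoderm only. 1 became 3 for H3K27ac endoderm in WT only. 2 became 4 for WT H3K27ac in endoderm only. 2 became 5 for H3K27ac endoderm in arid4b-delta only and H3K27ac mesoderm in arid4b-delta only. 4 became 2 for genes with both mesoderm calls. With broad peaks at a -log10 q of at least 1, 1 became 0 for WT H3K27me3 in mesoderm only. 3 became 5 for arid4b-delta H3K27me3 in mesoderm only. 9 became 14 for WT H3K27me3 in endoderm only. No paired analysis was possible because each group is 1 library. No replicate could be left out for the same reason. Depth is unknown, and the 2 genotypes' lists differ in length for each mark, so a call in 1 genotype only may mean a weaker peak in the other.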

Other observations

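Wnt5b (gene 22419, chromosome 6, 119432531 to 119544824) was counted without H3K27ac at its gene ends, but has 3 listed start sites, and H3K27ac lay within 1000 bp of the one at 119449386 in all 4 libraries. The peaks there had fold enrichment up to 6.14 in WT endoderm, 5.65 in arid4b-delta endoderm, 10.1 in WT mesoderm (998 bp) and 5.57 in arid4b-delta mesoderm (258 bp). A further H3K27ac site lay inside the gene, between its listed starts, in all 4 libraries. The strongest peak there reached 9.7 in WT endoderm and 16.0 in arid4b-delta endoderm. In mesoderm it reached 32.3 in WT (1308 bp) and 29.8 in arid4b-delta (1294 bp). The outermost start of Wnt5b carried H3K4me3 and H3K27me3 in all 4 libraries.

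Inside Lgr5 and inside Rspo2 H3K27ac peaks away from the gene ends were in both arid4b-delta libraries and in neither WT library: at Lgr5 with fold enrichment 5.42 in endoderm and 4.55 in mesoderm, overlapping at chromosome 10, 115573219 to 115573339, and at Rspo2 with up to 6.24 and 7.51. Upstream of Wnt3, 3 peaks between 1055 and 2204 bp from its start (fold enrichment 5.27 to 6.34) were in WT endoderm alone; they lie inside the Wnt9b model and count under both genes. Inside Wnt9a, 3 peaks (5.05 to 7.15) were in arid4b-delta mesoderm alone.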
